A study of Mus musculus with 20 samples.

Results

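Adult mice that carried no tagged ribosomes gave the 4 libraries described here, 2 pull-downs and the 2 supernatants left behind by them, out of 20 libraries in the study. They were chosen by their labels: IP libraries titled adult negative 1 and 2 against the supernatants with the same titles and numbers. Both pools came from female mice in diestrus, aged 70 to 150 days, that carried GnRH-Cre alone and no floxed L10a-GFP allele. Each pool held preoptic punches of 3 to 4 mice, and whether the pools shared any mouse is not given in the sources used here. The p-values therefore measure the spread between libraries of a group over the 10 untagged libraries, which may be partly technical. Beside them stand 6 untagged libraries from day 21 (3 IP and 3 supernatants), whose pools 1 and 2 were wild type and in whose pool 3 floxed L10a-GFP was the sole allele. Age and genotype changed together between the day 21 and adult untagged pools. An adult GFP-positive pool, GnRH-Cre with L10a-GFP, gave 1 IP and 1 supernatant.

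Translating ribosome affinity purification pulls down ribosomes through a GFP-tagged L10a subunit, so that the mRNA bound to them can be sequenced. In these crosses the tag is made only where Cre acts, in neurons that make gonadotropin-releasing hormone, the hypothalamic peptide that drives the pituitary gonadotropins. A pull-down from mice without the tag holds whatever RNA stays with the beads and antibody, and it is the usual background control of the method. In a bulk pull-down, fewer cells of a type and less RNA per cell cannot be told apart.

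The supernatants held 50.5 and 32.8 M counts and the IP libraries 34.4 and 37.1 M, so that 3 counts corresponded to 0.0594 to 0.0915 counts per M (CPM). A count was seen for 17720 and 17486 genes in the supernatants and for 15120 and 16002 genes in the IP libraries. The 10 most abundant genes took 4.77% and 5.70% of counts in the supernatants and 3.75% and 4.02% in the IP libraries. The series text calls adult supernatant 1 GFP-positive in 1 place, and its title and genotype call it untagged; the latter were followed. When the supernatant labelled GFP-positive was used in its place, 1695 of the 1779 genes called below were called again.

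Gnrh1, which encodes the hormone precursor, stood at 28.7 and 25.4 CPM in the supernatants of pools 1 and 2 and at 34.0 and 16.2 CPM in their IP libraries. The 2 pull-downs lay on either side of both supernatants, and the difference did not pass the test (log2 -0.11, SE 0.39, edgeR adjusted p = 0.922). The GFP-positive pool, scaled separately, showed 28.2 CPM of Gnrh1 in the supernatant and 1452 CPM in the IP, with 1 library each. Rpl10a, the endogenous gene for the subunit that is tagged in the cross, measured 115 and 122 CPM in the untagged supernatants and 85.7 and 88.0 CPM in the IP libraries. Both pull-downs were below both supernatants for it, with log2 -0.45 (SE 0.23, edgeR adjusted p = 0.257).

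Across 16361 genes tested, 1045 (6.39%) were higher in the adult IP than in the supernatant and 734 (4.49%) were lower, 1779 in all (10.9%). Under upper-quartile scaling in place of TMM the split was 902 higher and 1098 lower, so that the higher share of the calls was 45.1% in place of 58.7%. The 2 IP libraries lay both above or both below the 2 supernatants for 9544 genes (58.3%), including all 1779 that passed. With 2 libraries a side an exact permutation test of a single gene cannot go below p = 0.333, so the calls rest on the spread shared by the 10 untagged libraries. Leaving out any adult library lowered the number of calls over all genes. List counts from those fits are to be read beside that drop. Of the 734 lower calls, 53 (7.22%) were of genes with at most 3 counts in each IP library, and 50 of these had none. Their fitted changes are not sizes that the counts can support.

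**Figure D1:**
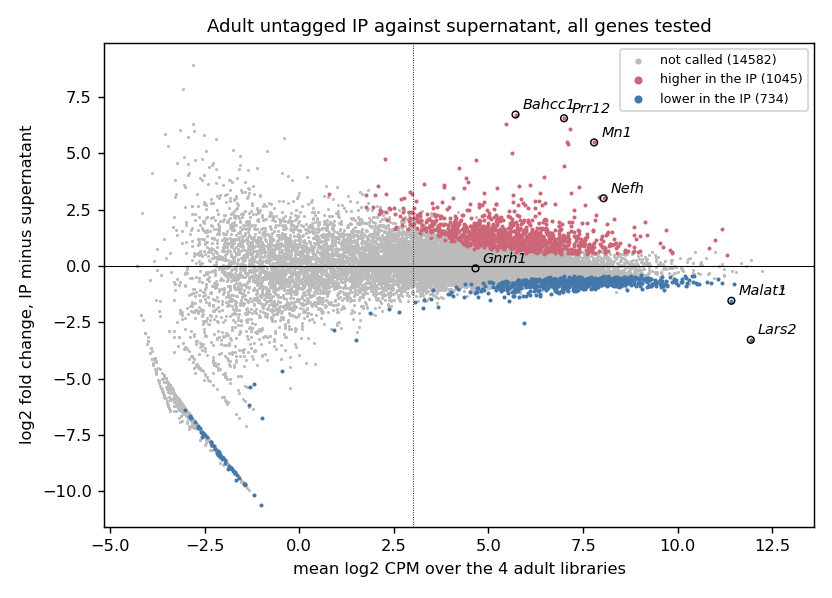
Log2 fold change of IP over supernatant (vertical) against mean log2 CPM over the 4 adult libraries (horizontal) for 16361 genes, 1 point a gene. Red marks the 1045 genes higher in the IP, blue the 734 lower; the dotted line is the mean log2 CPM of 3 used for naming genes, and the diagonal of blue points at the lower left holds genes with few or no counts in the IP.

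The 12 named rises are the largest calls at a mean log2 CPM of 3 or more. Bahcc1, whose product binds chromatin through a BAH domain, measured 4.38 and 5.90 CPM in the supernatants and 547 and 526 CPM in the IP libraries, a 105-fold rise (log2 6.71, SE 0.25, edgeR adjusted p = 1.16e-06). The gene is on chromosome 11, from 120232947 to 120292296 on the plus strand (GRCm38). Prr12, a proline-rich nuclear protein gene, went from 9.84 and 17.2 CPM to 1438 and 1083 CPM (log2 6.55, SE 0.32). Bcor, the BCL6 corepressor gene, went from 4.94 and 5.09 to 496 and 299 CPM (log2 6.31, SE 0.29). For these 3 genes the lower pull-down still exceeded the higher supernatant many times over.

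Tnrc18, which encodes a large chromatin protein named for its trinucleotide repeats, rose from 15.5 and 19.2 CPM to 1306 and 1035 CPM (log2 6.08, SE 0.28). Mn1, a transcriptional coregulator gene, went from 32.9 and 34.8 CPM to 1945 and 1073 CPM (log2 5.48, SE 0.31). Rai1, which encodes a nuclear regulator of transcription, went from 19.9 and 21.7 CPM to 1284 and 571 CPM (log2 5.48, SE 0.36). Pool 1 was the higher pull-down for all 3, as it was for every other named rise. Gse1, a subunit gene of a histone deacetylase complex, went from 17.6 and 24.7 CPM to 965 and 835 CPM (log2 5.41, SE 0.30). Yeats2, whose product reads acylated histones, went from 7.95 and 9.28 to 280 and 272 CPM (log2 5.01, SE 0.44).

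Nup98, a nuclear pore gene, had the widest gap between the 2 pull-downs among the named rises, with 189 and 81.0 CPM against 6.22 and 4.19 CPM in the supernatants (log2 4.69, SE 0.40). Ylpm1, which encodes a nuclear protein with YLP motifs, rose from 26.4 and 30.6 to 805 and 421 CPM (log2 4.43, SE 0.37). Hic2, a zinc finger repressor gene, rose from 4.64 and 3.57 to 92.8 and 76.6 CPM (log2 4.36, SE 0.38), and it was the named rise with the lowest level in the IP. Jmjd1c, a JmjC domain gene, rose from 19.3 and 26.7 to 391 and 312 CPM (log2 3.94, SE 0.25). All 12 were called under every one of the alternative settings run. In the single GFP-positive pool the same 12 genes had log2 ratios of IP to supernatant between 3.56 (Hic2) and 5.78 (Bahcc1).

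Several of these coding regions hold runs of the CAG triplet, counted on the coding strand in any reading frame. The longest runs among the 12 were 8 triplets in Tnrc18, 6 in Mn1, 5 in Ylpm1 and 4 in Bahcc1, and the other 8 genes had runs of 2 or 3. The 60 bases around these 4 runs are shown as the longest runs among the named rises; capitals mark the run. Prr12 and Bcor, the next largest rises after Bahcc1, had runs of 2. They are annotated coding sequence of GRCm38 (GENCODE M21), read 5′ to 3′ on the strand of the gene, in exon 9 of Bahcc1 (chr11:120274532-120274591, plus strand), exon 22 of Tnrc18 (chr5:142731820-142731879, minus strand), exon 1 of Mn1 (chr5:111419678-111419737, plus strand) and exon 3 of Ylpm1 (chr12:85013984-85014043, plus strand).
Bahcc1: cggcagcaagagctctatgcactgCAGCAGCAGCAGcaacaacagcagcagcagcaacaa
Tnrc18: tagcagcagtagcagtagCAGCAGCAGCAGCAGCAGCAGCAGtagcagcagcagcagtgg
Mn1: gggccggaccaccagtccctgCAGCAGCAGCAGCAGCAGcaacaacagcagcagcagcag
Ylpm1: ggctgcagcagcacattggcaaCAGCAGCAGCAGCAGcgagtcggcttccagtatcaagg

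A run of at least 4 CAG triplets occurred in the coding region of 95 of 1011 genes higher in the IP (9.40%), of 7 of 722 lower (0.970%) and of 426 of 15231 tested (2.80%). Longer coding regions have more room for a run. Among coding regions over 3000 nucleotides (nt), 71 of 463 higher genes (15.3%) and 159 of 2071 tested (7.68%) had one. The reverse complement triplet, CTG, in runs of at least 4 was found in 31 of 1011 higher genes (3.07%), 3 of 722 lower (0.416%) and 329 of 15231 tested (2.16%). The triplet was chosen after these genes were seen, so the shares are a description.

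**Figure D2:**
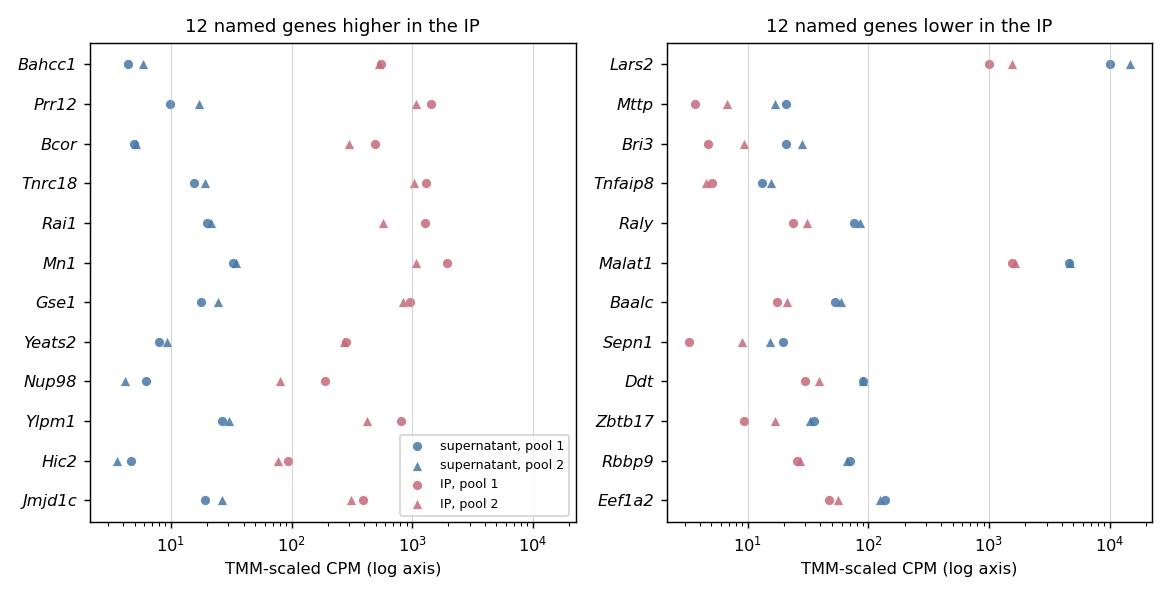
TMM-scaled CPM on a log axis of the 12 named genes higher (left) and lower (right) in the IP, 1 point a library; blue is supernatant, red is IP, circles are pool 1 and triangles pool 2. In every row the red points lie to one side of the blue ones; for Lars2 the supernatants are at 9969 and 14840 CPM and the pull-downs at 1005 and 1552 CPM.

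The named falls were smaller than the named rises. Lars2, the mitochondrial leucyl-tRNA synthetase gene on chromosome 9 from 123366927 to 123462666 (plus strand, GRCm38), measured 9969 and 14840 CPM in the supernatants and 1005 and 1552 CPM in the pull-downs (log2 -3.28, SE 0.31, edgeR adjusted p = 0.000267). All 37 tRNA synthetase genes together summed to 12560 and 17250 CPM in the supernatants, most of it Lars2. Whether all counts at this gene come from synthetase mRNA was not tested. Malat1, a nuclear long noncoding RNA, measured 4632 and 4712 CPM against 1554 and 1649 CPM (log2 -1.55, SE 0.15). Its 2 supernatants, and its 2 pull-downs, differed by far less than the fractions did. Raly, an RNA-binding protein gene, fell from 75.7 and 84.8 to 23.7 and 31.0 CPM (log2 -1.55, SE 0.25). Eef1a2, the elongation factor 1A form of mature neurons and muscle, fell from 138 and 124 to 47.0 and 55.7 CPM (log2 -1.35, SE 0.16). These 4 falls were called under every alternative.

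The other 8 named falls lost the call under at least 1 alternative. Mttp, the microsomal triglyceride transfer protein gene, stood at 20.6 and 16.9 CPM in the supernatants and 3.67 and 6.69 CPM in the IP libraries (log2 -1.85, SE 0.46). Bri3 went from 20.7 and 28.4 to 4.71 and 9.31 CPM (log2 -1.80, SE 0.39), and Tnfaip8 from 13.2 and 15.7 to 5.05 and 4.53 CPM (log2 -1.59, SE 0.36). Baalc (log2 -1.53), Ddt, the D-dopachrome tautomerase gene (log2 -1.40), Zbtb17, a zinc finger transcription factor gene (log2 -1.39), and Rbbp9 (log2 -1.38) also fell. Sepn1, the selenoprotein N gene, was nearest the threshold, with 19.7 and 15.3 against 3.25 and 8.90 CPM (log2 -1.53, SE 0.43, edgeR adjusted p = 0.0490), and its adjusted p was 0.0572 with the pool as a block. Of the 12 named falls, 4 were called without adult supernatant 1, 5 without adult supernatant 2, 4 without adult IP 1 and 10 without adult IP 2.

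Genes for chromatin modifiers, enzymes that write, erase or read histone and DNA marks, had 37 rises and 1 fall among 64 tested, with a median log2 of 1.03. Over all genes tested 6.39% were higher, 4.49% were lower and the median was 0. Kdm6b, a histone demethylase gene, went from 3.77 and 8.82 CPM to 93.5 and 71.8 CPM (log2 3.73, SE 0.35). Tet3, which encodes an oxidase of methylated DNA bases, went from 20.4 and 34.6 to 311 and 209 CPM (log2 3.24, SE 0.27). Kat5, an acetyltransferase gene, was the fall, from 92.9 and 94.2 to 53.4 and 54.6 CPM (log2 -0.79). Transcription coregulators had 12 rises and 1 fall, that of Med1 (log2 -0.82, edgeR adjusted p = 0.0621 in the blocked fit), among 34 tested, with a median of 0.69. Nucleoporins had 8 rises and no fall among 28, with a median of 0.12; Ranbp2, a filament protein gene of the pore, went from 16.5 and 16.7 to 164 and 218 CPM (log2 3.53, SE 0.22). Without adult supernatant 1, adult supernatant 2, adult IP 1 or adult IP 2 the rises were 15, 21, 29 and 29 for chromatin modifiers, 9, 9, 11 and 15 for coregulators, and 2, 6, 6 and 7 for nucleoporins.

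RNA processing genes did not move as a block. Of 47 splicing factors tested 6 rose and 4 fell, with a median of -0.10. The shares over all genes tested were 6.39% higher and 4.49% lower. Son, a large splicing cofactor gene, went from 81.5 and 104 to 350 and 337 CPM (log2 1.89), while Srsf7 went from 194 and 184 to 111 and 136 CPM (log2 -0.62). Without adult supernatant 1 or 2 or adult IP 1 no splicing factor was called lower. Long noncoding RNAs of the nucleus had 3 rises and 1 fall among 12. Xist, which coats the inactive X chromosome, measured 4.44 and 3.73 CPM in the supernatants and 10.2 and 25.8 CPM in the pull-downs (log2 2.14, SE 0.60), opposite in direction to Malat1. The 2 pull-downs differed from each other for Xist more than they did for Malat1, and its call was lost in 14 alternatives (edgeR adjusted p = 0.0651 in the fit blocked by pool). The other rises were of Rian (log2 0.93) and Kcnq1ot1 (log2 1.01), whose sign turned with a transcript length offset (log2 -0.63). No member but Malat1 was called without adult supernatant 1, and 1 rise was left without adult supernatant 2 and without either adult IP.

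Genes for large cytoskeletal and motor proteins also rose. The share over all genes tested was 6.39%, and 29.0% at a mean log2 CPM of at least 3 with transcripts of 5305 nt and over. Linkers, which tie membranes, filaments and synaptic active zones together, had 15 rises and 1 fall among 20 tested, with a median log2 of 1.25. Nav3, a microtubule-binding neuron navigator gene, went from 14.7 and 14.5 to 58.9 and 60.3 CPM (log2 2.03, SE 0.20). Bsn, the active zone protein bassoon, went from 20.1 and 24.7 to 116 and 84.8 CPM (log2 2.16, SE 0.28). Mtap4, a microtubule-associated protein gene, was the fall (log2 -0.79), while Mtap1a (log2 1.34) and Mtap1b (log2 1.17) rose. Motor proteins had 13 rises and no fall among 26, with a median of 0.78; Dync1h1, the heavy chain of cytoplasmic dynein, went from 87.3 and 114 to 321 and 435 CPM (log2 1.91). Giant ubiquitin ligases had 10 rises and no fall among 18, with a median of 0.98, led by Ubr4, from 73.6 and 96.0 to 724 and 683 CPM (log2 3.05, SE 0.26).

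All 4 neurofilament genes, which build the intermediate filaments of axons, rose. Nefh, the heavy chain, went from 91.5 and 94.7 to 724 and 767 CPM (log2 3.00, SE 0.16). Nefl went from 414 and 540 to 1416 and 1426 CPM (log2 1.58), Nefm rose by log2 1.21 and Ina, the internexin gene, by 0.67. Their median was 1.39, and 1.36 with an offset for transcript length. Without adult supernatant 1, adult supernatant 2, adult IP 1 or adult IP 2, linkers had medians of 1.27, 1.21, 1.35 and 1.16. Those of motors were 0.665, 0.825, 0.89 and 0.63. Those of giant ligases were 0.92, 1.07, 1.23 and 0.94, and of neurofilaments 1.28, 1.46, 1.36 and 1.425. Fewer linkers and motors were called in each of these fits, and fewer giant ligases and neurofilaments in each but the last.

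Synaptic and channel genes rose in smaller numbers. Postsynaptic scaffolds had 5 rises among 20 tested, with a median log2 of 0.66; Shank1 went from 44.3 and 52.7 to 199 and 150 CPM (log2 1.85, SE 0.24). Ionotropic glutamate receptor genes had 4 rises among 16, with a median of 0.41, including Grin1, the obligatory NMDA receptor subunit, from 67.1 and 54.8 to 148 and 123 CPM (log2 1.15). Potassium channels had 10 rises among 35, with a median of 0.74. Sodium and calcium channels had 5 rises among 24. None of these 4 lists had a fall. Over all genes tested 6.39% were higher. Among genes at a mean log2 CPM of at least 3 with transcripts of 5305 nt and over, 29.0% were higher. Median transcript lengths of the 4 lists ran from 5215 nt (potassium channels) to 8227.5 nt (sodium and calcium channels). The vesicle release list was split, with 5 rises and 5 falls among 28: Unc13a, a large priming protein gene, rose by log2 1.497, and Vamp2, the small vesicle SNARE gene, went from 2407 and 2440 to 1548 and 1358 CPM (log2 -0.74, SE 0.11). Bsn, counted above among the linkers, is on this list too and is 1 of its rises. Without adult supernatant 1 the rises were 2 of scaffolds, 0 of glutamate receptors, 1 of potassium channels and 0 of sodium and calcium channels. Without adult supernatant 2 they were 2, 0, 2 and 1, and without adult IP 1 they were 3, 1, 3 and 2; without adult IP 2, sodium and calcium channels had 2. The vesicle list had 1 rise and 1 fall without adult supernatant 1, and 2 and 1 without adult supernatant 2. Its falls numbered 2 without either adult IP. With the pool as a block, scaffolds had 9 rises. With the transcript length offset, scaffolds had 3 rises and 2 falls, glutamate receptors 2 rises, potassium channels 4, and sodium and calcium channels 0, with a median of 0.01. Without adult IP 2, 1 potassium channel gene was called lower.

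Genes of the respiratory chain and ATP synthase, which together make most cellular ATP, were lower in the IP: 37 of 77 tested fell and 1 rose, with a median log2 of -0.73. Atp5g3, an ATP synthase membrane subunit gene, went from 1100 and 1199 CPM to 553 and 553 CPM (log2 -1.06, SE 0.15). Sdhc, a succinate dehydrogenase subunit gene, went from 322 and 328 to 136 and 179 CPM (log2 -1.04, SE 0.16). Cox5a, of cytochrome oxidase, went from 822 and 840 to 439 and 455 CPM (log2 -0.90, SE 0.15). Ndufs1, the largest core subunit of complex I, was the rise, from 168 and 160 to 238 and 244 CPM (log2 0.56). By complex the falls were 21 in complex I, 4 in complexes II and III, 4 in complex IV and 8 in complex V. Without adult supernatant 1, adult supernatant 2, adult IP 1 or adult IP 2 the median of all 77 was -0.83, -0.70, -0.79 and -0.64. Fewer falls were called in each of these fits, as over all genes. The falls numbered 6 with the length offset. They numbered 55 with the pool as a block, 55 with upper-quartile scaling and 61 with DESeq2; complex IV had 10 with the block. The rise of Ndufs1 was lost without either adult supernatant and with the 4 adult libraries alone.

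Ribosomal protein genes had no rise. Of 78 cytosolic ones tested 11 fell, with a median of -0.69, and of 76 mitochondrial ones 14 fell, with a median of -0.51 (log2). Lower calls made up 4.49% of all genes tested. At a mean log2 CPM of at least 3 with transcripts up to 1823 nt they made up 14.4%. Rps27a went from 235 and 274 to 132 and 121 CPM (log2 -1.01, SE 0.22), and Mrpl51 from 141 and 155 to 77.5 and 75.4 CPM (log2 -0.95, SE 0.16). With the pool as a block the falls were 45 and 25, and with upper-quartile scaling 30 and 26. With the length offset they were 0 and 4, with medians of -0.18 and -0.15. Without adult supernatant 1, adult supernatant 2, adult IP 1 or adult IP 2, the cytosolic list had medians of -0.78, -0.63, -0.70 and -0.68. The mitochondrial list had -0.58, -0.52, -0.63 and -0.43, and fewer falls were called for both lists in each of these fits. Reads of cytosolic ribosomal protein genes are uncertain where pseudogene copies are near-identical.

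Translation factors moved both ways. Of 48 tested 6 rose and 11 fell: Eif4g1, the large scaffold of the cap-binding complex, went from 90.9 and 92.3 to 259 and 260 CPM (log2 1.504, SE 0.15), and its relative Eif4g3 rose by log2 1.84. Eif4e, the small cap-binding partner of both, went from 338 and 299 to 179 and 159 CPM (log2 -0.91, SE 0.17). The list had 2 rises and 3 falls without adult supernatant 1, 4 and 4 without adult supernatant 2, and 6 and 5 without adult IP 1. Proteasome subunits had 6 falls and no rise among 31, with a median of -0.40, and none of the falls was called without adult supernatant 1, adult supernatant 2 or adult IP 1. With the length offset there was no call and a median of -0.06, while the block gave 10 falls, upper-quartile scaling 14 and DESeq2 17. Of 37 tRNA synthetase genes 2 rose and 1 fell, with a median of -0.02, and none rose with the length offset. The counts of these lists stand beside 6.39% higher and 4.49% lower over all genes tested. The cytosolic leucyl enzyme gene Lars rose (log2 0.96, SE 0.24) from 27.2 and 29.6 to 50.7 and 59.7 CPM, opposite to the mitochondrial Lars2; its call was lost in 11 alternatives.

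**Figure D3:**
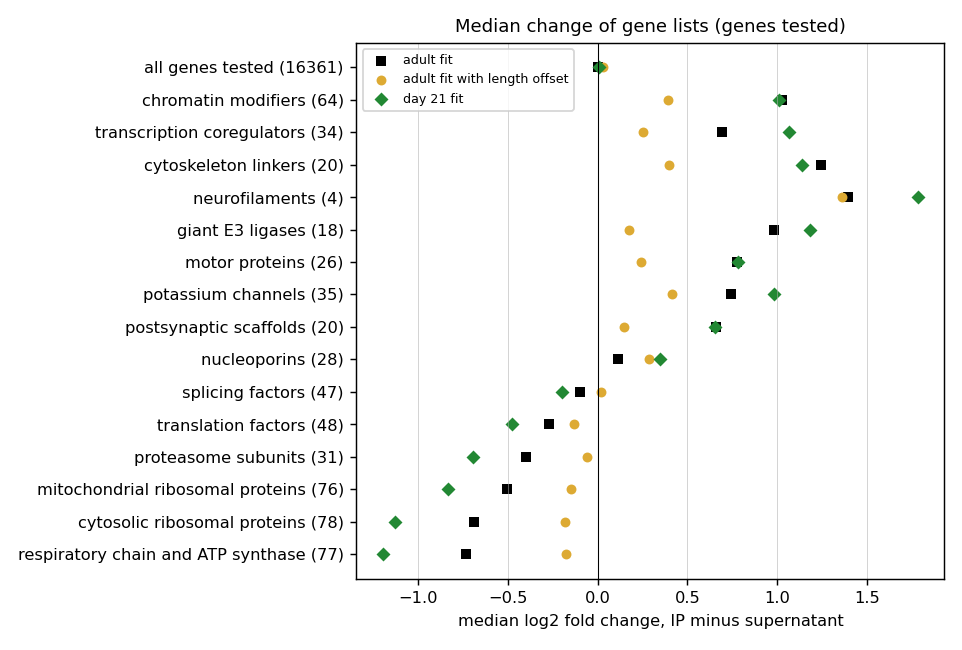
Median log2 fold change of IP over supernatant (horizontal) for 15 gene groups and for all genes tested, with the number of genes tested in parentheses. Black squares are the adult fit, yellow circles the adult fit with an offset for transcript length and green diamonds the day 21 fit; chromatin modifiers lie at 1.03, 0.39 and 1.01, and respiratory chain genes at -0.73, -0.18 and -1.19.

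Transcript length moved with the difference between fractions. Genes with mean log2 CPM of at least 3 were put in 5 equal bins by transcript length. The median log2 fold change went from -0.41 in the shortest bin (up to 1823 nt) through -0.15, 0.04 and 0.23 to 0.64 in the longest (5305 nt and over). In the shortest bin 0.619% of genes were higher and 14.4% lower, and in the longest 29.0% were higher and 0.904% lower. Pools 1 and 2 gave -0.38 and -0.46 in the shortest bin and 0.63 and 0.60 in the longest. The GFP-positive pool gave -0.46 and 0.52, and the day 21 fit -0.63 and 0.73. Higher genes had a median transcript length of 6237 nt and lower ones 2073.5 nt, against 3123 nt over tested coding genes.

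Coding length had the closest relation of the transcript parts. Its median was 2763 nt in higher, 639 nt in lower and 1368 nt in tested genes. Over 10317 coding genes the rank correlation of the log2 fold change with coding length was 0.579, with transcript length 0.547, with length of the 3′ untranslated region 0.271 and with transcript GC content 0.008. These are across genes of the same libraries, which are not independent, and carry no p. Within the 2359 transcripts over 5000 nt, the correlation was 0.461 with coding length and -0.192 with 3′ untranslated length. RNA integrity of the libraries is not given in the sources used here, and its part in the length relation was not tested.

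With an offset that removes the length trend of each library, 518 genes (3.17%) were higher and 394 (2.41%) lower, and 726 of the 1779 calls were made again. All 12 named rises and 10 of the 12 named falls were among them, without Bri3 and Sepn1. The median of chromatin modifiers went from 1.03 to 0.39 with 16 rises, of linkers from 1.25 to 0.40 with 4 rises, of motors from 0.78 to 0.24 with 3 rises and of giant ligases from 0.98 to 0.18 with 6 rises. That of respiratory chain genes went from -0.73 to -0.18, and of cytosolic ribosomal protein genes from -0.69 to -0.18 with no call. Translation factors had 6 rises and 5 falls in place of 6 and 11, Eif5b was no longer called, and Eef1a2, Eif4e and Eif4g1 were called in the same direction.

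**Figure D4:**
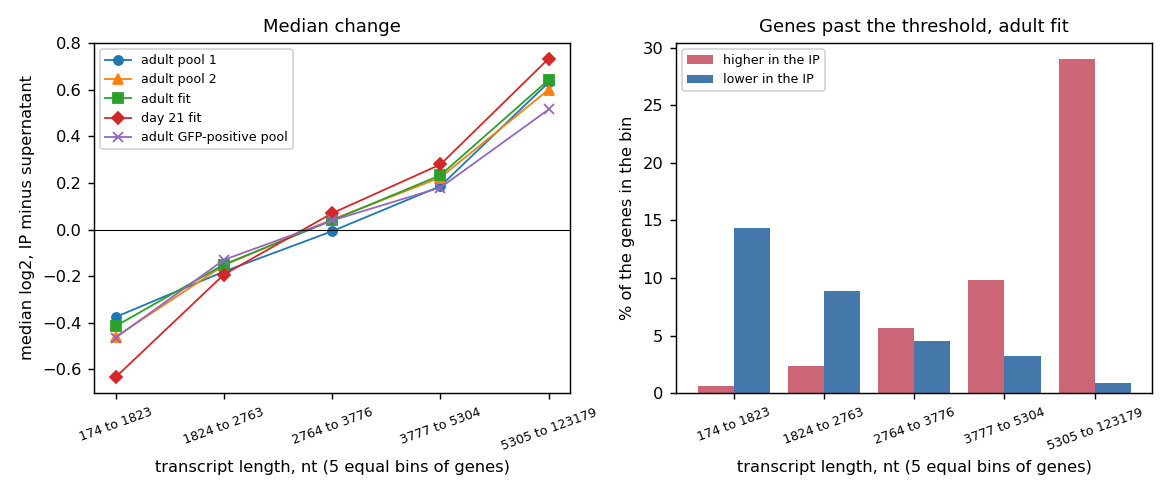
Left, median log2 fold change or ratio of IP to supernatant in each of 5 equal bins of transcript length for adult pool 1, adult pool 2, the adult fit, the day 21 fit and the adult GFP-positive pool; right, percent of genes in the bin called higher (red) or lower (blue) in the adult fit. Every line climbs from the shortest bin, where the adult fit is at -0.41, to the longest, where it is at 0.64.

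Of 14 preoptic markers tested none passed, with a median log2 of 0.04. Tac1, the tachykinin precursor gene, stood at 174 and 174 CPM in the supernatants and 165 and 124 CPM in the IP libraries, and Esr1, the estrogen receptor gene, at 15.0 and 9.72 CPM against 37.7 and 7.38 CPM. Sytl4 had no count in IP 1. Without adult IP 2, 1 preoptic marker was called higher and 1 lower. None of 10 endothelial, 8 mural, 12 astrocyte, 12 oligodendrocyte and 9 GABA neuron markers passed the test in the main fit. DESeq2 called 1 astrocyte marker and 1 GABA neuron marker higher. Of the 10 endothelial markers 9 had a log2 fold change above 0, with a median of 0.88, and without adult IP 2 the median was -0.95. Of 12 markers of neurons in general, 1 was higher (Syt1) and 3 were lower, Stmn3 and Uchl1 among them, with a median log2 of 0.08. With the length offset none of these 12 was called. Aldoc, an astrocyte enzyme gene, stood at 919 and 879 CPM in the supernatants and 878 and 869 CPM in the IP libraries. Gad1, for GABA synthesis, stood at 630 and 563 CPM against 806 and 783 CPM (log2 0.41, edgeR adjusted p = 0.159). Penk, the enkephalin gene, stood at 373 and 374 CPM against 361 and 380 CPM, and none of the 24 neuropeptide genes tested was called. Of 12 microglial markers Siglech was called lower, with 154 and 106 counts in the supernatants and 1 in each pull-down. Siglech was not called with the pool as a block or without any one adult library.

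The 2 pools differed in some of these markers. Summed over the endothelial list, the supernatants held 28.2 and 37.9 CPM and the pull-downs 27.6 and 83.2 CPM, and the median log2 ratio was -0.56 in pool 1 and 1.37 in pool 2. Cldn5, the endothelial tight junction gene, measured 6.93 and 7.95 CPM in the supernatants and 0.931 and 16.9 CPM in the pull-downs. Mural markers had median ratios of -1.41 and 0.25, and their sums were 109 and 167 CPM in the supernatants and 84.4 and 181 CPM in the pull-downs. The oligodendrocyte list summed to 3616 and 5733 CPM in the supernatants and 3112 and 7973 CPM in the pull-downs, so that pool 2 was the higher pool in both fractions; Mbp, the myelin basic protein gene, was at 1432, 2141, 1248 and 4310 CPM. The part of these cell types in the differences between pools was not tested.

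Basement membrane genes had 3 rises and 1 fall among 17 tested, where 6.39% of all genes tested were higher and 4.49% lower. Col4a1, a collagen IV chain gene, went from 3.11 and 3.48 to 21.1 and 18.4 CPM (log2 2.58, SE 0.63), and Agrn, the agrin gene, from 12.8 and 13.7 to 30.2 and 34.9 CPM (log2 1.30). Nid2, the nidogen 2 gene, had 63 and 35 counts in the supernatants and 0 in both pull-downs, at least 14-fold lower against a floor of 3 counts per library. Without adult IP 1 there was 1 rise, and without any one of the other adult libraries none, and the fall was lost in each case. With the length offset no rise was called, and Col4a1 also lost its call with limma voom.

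Pull-downs repeated less closely than supernatants. Over 10598 genes with mean log2 CPM of at least 3, log2 CPM of the 2 supernatants correlated at 0.986, with an SD of their difference of 0.267, and 0.311% of genes differed by more than 2-fold. The 2 pull-downs correlated at 0.917, with an SD of 0.619, and 10.03% differed by more than 2-fold. The log2 ratios of pool 1 and pool 2 correlated at 0.69 across these genes. All 1779 called genes had the same sign in both pools, which follows from their groups not overlapping.

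Genes whose ratio differed most between the pools were not among the calls, which were made on these same libraries. Slc7a11, the cystine transporter gene, measured 8.61 and 21.6 CPM in the supernatants and 1.38 and 38.6 CPM in the pull-downs, so that the log2 ratio was -2.60 in pool 1 and 0.83 in pool 2. Ccne1, the cyclin E1 gene, had ratios of -2.71 and 0.57. In the other direction, Calcr, the calcitonin receptor gene, was at 9.25 and 8.88 CPM in the supernatants and 20.03 and 2.68 CPM in the pull-downs, with ratios of 1.11 and -1.71. Few genes were lost outright: of 9569 genes with at least 10 CPM in both supernatants, 2 had no count in IP 1 and 0 in IP 2. Of 11195 genes with at least 5 CPM, 24 had none in IP 1 and 2 had none in IP 2.

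**Figure D5:**
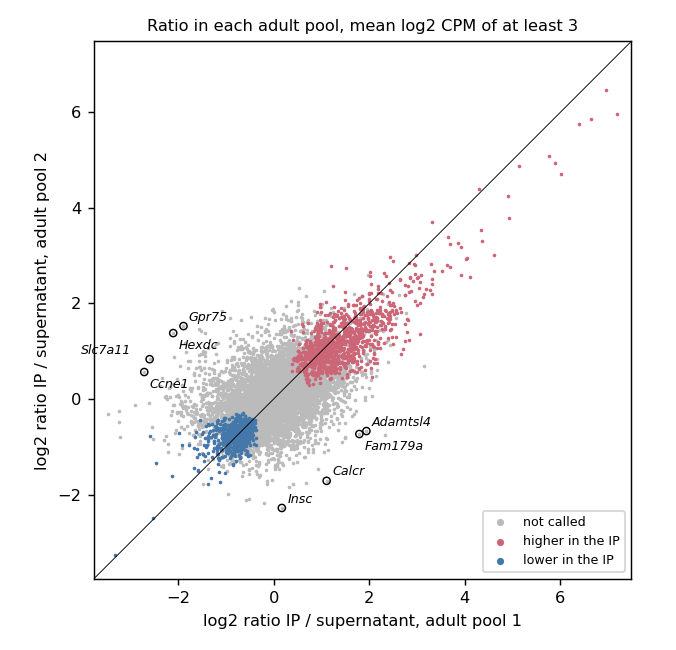
Log2 ratio of IP to supernatant in adult pool 2 (vertical) against adult pool 1 (horizontal) for 10598 genes with mean log2 CPM of at least 3, with the line of equality. Red and blue mark genes called higher and lower; the 8 circled genes are those with the largest difference between pools, such as Slc7a11 at -2.60 and 0.83, and none of them is coloured.

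The day 21 pools gave a similar order of genes. The log2 fold changes of the 2 ages correlated at 0.833 over the same 10598 genes, with no library in common. Of 16361 genes, 0 passed the edgeR test of the difference between ages, with 1068 (6.53%) at an unadjusted p under 0.05. limma voom gave 0 and DESeq2 118, and edgeR without adult IP 2 gave 67. Eef1a2 was at log2 -1.35 in adults and -2.34 at day 21, where it measured 197 to 203 CPM in the supernatants and 36.4 to 45.3 CPM in the pull-downs (unadjusted p = 0.000721 for the difference). Mttp was at log2 -1.85 in adults and 0.13 at day 21 (unadjusted p = 0.00597), and Sepn1 at -1.53 and 0.74 (unadjusted p = 0.00203). None of these 3 differences passed adjustment. At day 21 the 12 named rises had log2 values from 3.95 (Hic2) to 6.91 (Bcor). The 12 named falls had values from -3.93 (Lars2) to 0.74 (Sepn1). Mttp, Sepn1, Tnfaip8, Zbtb17 and Rbbp9 were not called at day 21 (edgeR adjusted p from 0.132 to 0.859).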

How the data were processed

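The members and gene lists were chosen with earlier results of these data known. Raw counts of reads per gene were deposited by the authors for 19269 symbols in 20 libraries, as whole numbers with no normalization. Per the submitters' processing notes, the build was mm10 and the tools DESeq2 1.14.1, HTSeq 0.6.1, TopHat2 2.0.13, Bowtie2 2.2.1, FastQC 0.11.3, Cuffdiff 2.1.1 and Cufflinks. Their roles, the annotation and the strand setting are not given in the sources used here. Overlapping and antisense genes therefore could not be told apart. Depths are given above, and floors cover counting error only.

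Counts of the 10 untagged libraries were fitted in edgeR 4.0.16 (R 4.3.3) by quasi-likelihood, with TMM scaling, filterByExpr at a minimum count of 10, 6 residual degrees of freedom and Benjamini-Hochberg adjustment at 0.05. Contrasts were adult IP minus supernatant, the same at day 21, and their difference. CPM are TMM-scaled over the 10 untagged libraries, and ratios within a pool use a prior count of 2. CPM and ratios of the GFP-positive pool come from a separate TMM scaling over the untagged libraries and its own 2. Named genes are the 12 with the largest change in each direction among calls at a mean log2 CPM of 3 or more and groups not overlapping, leaving out symbols of predicted genes, then Gnrh1, Rpl10a and up to 2 members a direction in each list. A few other members were named after their values were seen.

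Titles give each IP and its supernatant the same pool number, although the descriptions number the adult supernatants otherwise. Deviations from group means of same-numbered libraries correlated at 0.243 in adults, where the swapped pairs give -0.243 by construction. At day 21 they correlated at 0.283, 0.18 and 0.456, against -0.4 to 0.148 for the other pairs. The numbers were taken to pair the fractions in the ratios within a pool and in the blocked fits. The main fit had no pool term. Lengths and sequences came from the longest coding transcript of GENCODE M21 on GRCm38, the assembly also called mm10, for 18961 symbols (98.4%). Protein sequences were not used here. Alternatives were limma voom 3.58.1, DESeq2 1.42.0, other scalings and filters, a replicate block, a length offset, a swapped supernatant and leaving out each library. The procedure was run on simulated counts with known changes, in which pull-downs and supernatants varied alike. In the real libraries pull-downs varied more, so the simulation does not measure the error rate of the calls.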

Additional observations from a re-analysis of the deposited data

How the results depend on the processing

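Of 73 called members named from the lists, 26 were called in all 22 alternatives. Calls rest on 2 libraries a side and on a spread shared with day 21. Where an adult library was left out, the lone library of its group was assumed to vary like the others. No alternative called any of the 1779 genes in the opposite direction. Leave-one-out counts ran from 211 to 1269 higher, 74 to 1129 lower and 285 to 2398 in all, and from 0 to 67 for the difference between ages. The total was 285 without adult supernatant 1, 485 without adult supernatant 2, 887 without adult IP 1 and 1185 without day 21 supernatant 2 (437 lower); without day 21 IP 3, 1129 were lower, and without adult IP 2, 67 differed between ages. With the 4 adult libraries alone 686 were higher. DESeq2 gave 1383 lower, 2897 in all and 118 between ages. The length offset gave 518 higher, 394 lower and 912 in all, and with the pool as a replicate block as well 474, 427 and 901. The block alone gave 1103 higher and 972 lower, 2075 in all, and of the 24 genes named by size it ended the call of Sepn1 alone. Among the list members named above it also ended those of Med1, Xist and Siglech, and it changed no other call named above. Of the 73 it ended as well those of Prpf31 and Lamc1, which are not described above. Signs turned with the length offset for Kcnq1ot1 (log2 -0.63, and -0.63 with the block) and Gabrb1 (-0.071 and -0.074), where the offset removes a trend with length; neither was called there.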
